A study of Mus musculus with 2 samples.

Results

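The authors listed windows for the protein GPS2 in 3T3-L1 cells at day 6 of adipocyte differentiation. Of these, 150 with at most 3 reads before induction are described here. They were chosen by position and read counts. A window of the day 6 list qualified if it overlapped no window of the day 0 list by 1 bp, held at most 3 reads of the day 0 library and held at least 15 reads of the day 6 library. So low a day 0 count was common in unlisted sequence, where 64.3% of bins of 2 kb with a read held at most 3. The 150 make up 0.758% of the 19794 windows of the day 6 list (95% interval 0.642 to 0.889), and 1.06% (0.899 to 1.24) of the 14130 without a day 0 counterpart. Every interval given here is an exact 95% interval of the counts and covers counting error only.

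3T3-L1 is an established mouse preadipocyte line that accumulates fat after hormonal induction. ChIP-seq (chromatin immunoprecipitation followed by sequencing) of GPS2 was made in uninduced cells (day 0) and in induced cells (day 6), with 1 library per day. The labels name no other treatment or genotype. The antibodies were raised in rabbits against peptides of the carboxy or amino end of GPS2, and the labels do not tie an antibody to a library. There were 4258133 aligned reads at day 0 and 3543507 at day 6, and all positions are in the mouse build mm8. An input library was not analysed here, so reads piled up for reasons other than GPS2 cannot be told apart from GPS2 binding. With 1 library per day no difference between the days can be tested against the spread between cultures.

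GPS2 is a core subunit of the corepressor complexes built around NCoR and SMRT, together with the deacetylase HDAC3 and TBL1 proteins. These complexes are recruited by nuclear receptors and other transcription factors, and keep histones near their target genes deacetylated. In fat cells GPS2 is also known as a cofactor of the nuclear receptor PPARG, the main driver of adipogenesis, and the title of the series names the recruitment of PPARG to promoters and the histone demethylase KDM4A. No gene annotation or genome sequence of mm8 was used here, so the sites carry coordinates and no gene names, and no bases are printed.

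The read counts chose these sites, and are given as a description. At day 0 none of the 150 held 0 reads (0 of 150, which allows a share of up to 2.43%), 18 held 1 read, 46 held 2 and 86 held 3. At day 6 they held 15 to 27 reads, with a median of 17. Most sat close to the lower limit: 94 had 15 to 17 day 6 reads (62.7%, 54.4 to 70.4), and 28 had 20 or more (18.7%, 12.8 to 25.8). Together they held 368 day 0 reads and 2622 day 6 reads. The ratio of day 6 to day 0, scaled by library size, was 6.01 to 25.2 for single sites, with a median of 8.41, and 8.56 (7.67 to 9.57) for their sum. All 150 passed a ratio of 2 with at least 10 reads in 1 library, which the limits on the counts force, and 35.4% of the whole day 6 list did.

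**Figure D1:**
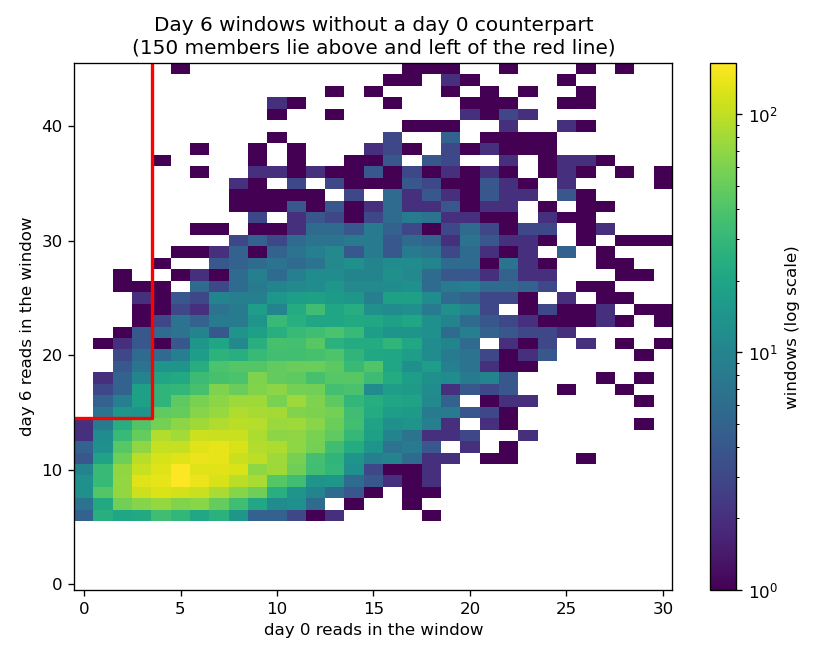
Each cell counts the day 6 windows without a day 0 counterpart that hold a given number of day 0 reads (horizontal axis) and day 6 reads (vertical axis), with the number of windows as colour on a log scale. The 150 chosen windows, above and left of the red line, lie on the sparse upper left edge of 1 continuous cloud of 14130 windows, of which 95 lie beyond 30 day 0 or 45 day 6 reads and are not drawn.

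The limits cut through a continuous distribution. Just outside them lay 158 windows with 4 day 0 reads and 15 or more day 6 reads, and 75 windows with at most 3 day 0 reads and 14 day 6 reads. The 158 held 15 to 37 day 6 reads with a median of 17, the same median as the sites themselves. Their fold over the flank at day 6 (read density in the window over that in the 5 kb on both sides) had a median of 4.36, against 4.25 for the 86 sites with 3 day 0 reads. The 75 had a median of 3.68, and the 36 sites with 15 day 6 reads had 3.49. The sites are therefore the end of a range of windows and not a class set apart by a gap.

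The sites are compared with 3 other groups of the day 6 list. A first group of 5937 windows, called gained here, also lacked a day 0 counterpart and held 15 or more day 6 reads, but held 4 or more day 0 reads. A group of 1399 faint windows shared the limit of 3 day 0 reads but held under 15 day 6 reads. A group of 4700 kept windows overlapped the day 0 list and held 15 or more day 6 reads. As background, the genome outside all windows and a margin of 1 kb was cut into consecutive bins of 2 kb, of which 1184137 held a read of either library. Of these bins, 64.3% held at most 3 day 0 reads and 0.121% held 15 or more day 6 reads. These shares say how common each limit is in unlisted sequence, and the sites meet both by choice.

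Each window was also set against its own surroundings, the 5 kb on both sides outside all listed windows, which the rule did not use. At day 0 the sites held 2.45 reads per window and their flanks 4.15 reads per 2 kb, a summed fold of 0.591 (0.529 to 0.659). At day 6 they held 17.5 reads per window and their flanks 4.25 per 2 kb, a fold of 4.12 (3.90 to 4.34). The gained windows went from 2.43 (2.40 to 2.45) to 4.51 (4.48 to 4.55), the faint windows from 0.589 (0.568 to 0.611) to 2.79 (2.73 to 2.85), and the kept windows from 5.04 (5.005 to 5.08) to 6.82 (6.77 to 6.88). The limits on the window counts enter all of these folds, so they are given as a description.

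For single sites the flank density was replaced by the genome mean where the mean was higher. The fold at day 6 then ranged from 1.38 to 9.69, with a median of 4.25 and a middle range of 3.13 to 5.96. It reached 4 at 83 of the 150 sites (55.3%, 47.0 to 63.4), beside 50% of all day 6 windows and 68.2% of the gained ones (67.0 to 69.3). The rule used the window counts, so nothing is read from these shares. At day 0 the fold was 0.128 to 0.929 with a median of 0.619, and it was at most 1 at all 150, beside 14.3% of all day 6 windows. None reached 2 at day 0, beside 58.9% of all day 6 windows. Both counts follow from the limit of 3 reads, because the genome mean alone was 3.23 reads per 2 kb.

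Although the day 0 windows as a whole were sparse, the few day 0 reads were not spread evenly within them. Of the 368 day 0 reads, 145 lay within 200 bp of the window centre (39.4%, 34.4 to 44.6), a stretch that makes up a share of 20% of the window and held 19.9% of the day 0 reads in background bins with at most 3 of them. The rule set the number of day 0 reads in a window and not their place. The same share was 41.1% (39.4 to 42.9) in the faint windows, 35.0% (34.7 to 35.3) in the gained windows and 46.6% (46.3 to 46.9) in the kept windows. Among the 28 sites with 20 or more day 6 reads it was 27.0% (17.4 to 38.6), an interval that includes 20%.

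The day 0 reads near the centre also differed by strand. Within 200 bp of the centre, plus-strand reads started 45 times upstream (at lower coordinates) and 27 times downstream, and minus-strand reads 12 times upstream and 41 times downstream. Fragments that cover 1 bound point start in this order. Density in the central 400 bp at day 0 was 2.60 times (2.10 to 3.22) that of the outer 1600 bp of the same windows, and 1.17 times (0.979 to 1.38) that of the flanks. The limit of 3 reads lowers the centre and the rest of the window but not the flanks, so nothing is read from the comparison with the flanks.

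**Figure D2:**
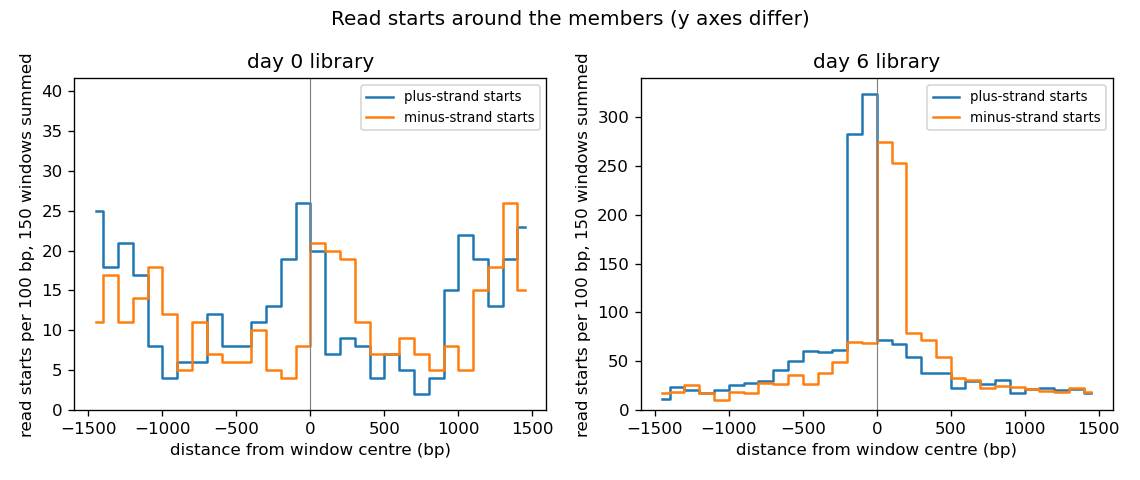
Read starts per 100 bp, summed over the 150 sites, against the distance from the window centre, for plus-strand (blue) and minus-strand (orange) reads of the day 0 library (left) and the day 6 library (right), on different vertical scales. Day 0 starts reach 26 (plus) and 21 (minus) per 100 bp at the centre, beside up to 25 (plus) and 26 (minus) in stretches more than 1 kb from it. Day 6 starts reach 324 and 275 at the centre, and in both libraries the plus strand lies upstream and the minus strand downstream.

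At day 6, the library on which the windows were listed, the reads gathered at the centre. Of the 2622 day 6 reads, 1419 lay within 200 bp of the centre (54.1%, 52.2 to 56.0), against 47.9% (47.6 to 48.2) in the gained and 50.6% (50.4 to 50.9) in the kept windows. It was 73.9% (73.2 to 74.7) in the faint windows, and 49.1% (45.1 to 53.1) at the 28 sites with 20 or more day 6 reads. Density in the central 400 bp was 11.1 times (10.4 to 11.9) that of the flanks, next to 10.8 (10.7 to 10.9) in the gained, 10.3 (10.1 to 10.6) in the faint and 17.3 (17.1 to 17.4) in the kept windows. The rule set the number of day 6 reads, so nothing is read from these folds. Against the level more than 1 kb out, plus-strand starts just upstream (200 bp) were 15.3 times as dense and minus-strand starts just downstream 13.9 times. Plus-strand reads made up 52.3% (50.3 to 54.2) of the day 6 reads in the sites, so both strands contributed.

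The stretch of 400 bp with the most day 6 reads lay within 200 bp of the window centre at 143 of the 150 sites (95.3%, 90.6 to 98.1) and at most 470 bp away at the others. The share within 200 bp was 88.5% in the gained, 100% in the faint and 85.3% in the kept windows. At the sites this stretch held 6 to 23 day 6 reads, with a median of 11, and 63.0% of all their day 6 reads. It held 58.8% in the gained, 78.6% in the faint and 60.7% in the kept windows. The windows were listed on the same day 6 library, so nothing is read from these day 6 shares. At 45 of the 150 sites (30%, 22.8 to 38.0) this stretch held no day 0 read at all. That was so at 2.54% (2.16 to 2.98) of the gained windows, where the day 0 count was higher by choice, and at 37.5% (34.9 to 40.1) of the faint windows.

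In all, 12 sites held 22 or more day 6 reads, the last 5 of them tied. The first, on chromosome 12 (54628275 to 54630274), held 2 day 0 and 27 day 6 reads, with 9 and 16 flank reads. Its fold over the flank at day 6 was 8.44. Its day 0 value of 0.619 is over the genome mean, which was above the flank density, so the 2 values have different bases. Of its 27 day 6 reads, 18 lay in 400 bp that held no day 0 read. The site stood alone, with the nearest other day 6 window 361 kb and the nearest day 0 window 428 kb away. The narrowest of the 12 lay on chromosome 1 (87984947 to 87986946), with 2 and 26 reads, of which 23 of the day 6 reads fell in 400 bp. Both of its day 0 reads fell in that same stretch, and its fold at day 6 was 7.22.

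On chromosome 4 (10980744 to 10982743) a site went from 3 to 26 reads and reached the highest fold over the flank of all, 9.69. Its reads did not gather at the window centre: 3 of the 26 lay within 200 bp of it, and the densest 400 bp, 370 bp off the centre, held 9. A site on chromosome 19 (57677186 to 57679185) went from 3 to 25 reads at a fold of 9.31, with 22 of the 25 in 400 bp that held no day 0 read. Another on chromosome 4 (15940374 to 15942373) went from 3 to 23 reads at a fold of 8.57. Tied behind them at 8.20 were sites on chromosome 10 (126794420 to 126796419) and chromosome 1 (53296100 to 53298099), each with 3 and 22 reads. At the sites with the highest folds, the chromosome 12 site included, the flanks held 9 to 16 day 6 reads and 9 to 20 day 0 reads. They went from 9 to 16 at the chromosome 12 site and from 20 to 10 at the chromosome 1 site. At all of them but the chromosome 12 site the day 6 genome mean was above the flank density and took its place. Ranking by day 6 fold favours sparse day 6 flanks, so nothing is read from these counts.

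Other sites with as many reads stood in flanks that were themselves dense at day 6. On chromosome 11 (115665042 to 115667041) a site went from 3 to 25 reads while its flanks went from 26 to 38, so that its day 6 fold was 2.72. A further site on that chromosome (119815148 to 119817147) went from 3 to 24 reads with 26 and 40 flank reads, a fold of 2.66. On chromosome 8 (108159129 to 108161128) the site went from 2 to 22 reads, its flanks from 21 to 44, and the fold was 1.53. These 3 sites had another day 6 window 3.82 to 5.87 kb away. The last of the 12, on chromosome 1 (33851596 to 33853595) and chromosome 5 (139187416 to 139189415), each held 3 and 22 reads at folds of 6.88 and 4.78.

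The flanks as a whole gained reads as well. The rule did not use them, but they adjoin windows chosen by their read counts, and the part of that choice was not tested. The flanks of the sites held 2913 day 0 reads and 2982 day 6 reads, and the ratio scaled by library size was 1.23 (1.17 to 1.30). The ratio was 1.07 (1.06 to 1.08) in the flanks of the gained windows, 1.09 (1.07 to 1.11) at the faint windows, 1.04 (1.03 to 1.05) at the kept windows and 0.949 (0.948 to 0.9505) in the background bins. The flank ratio was above 1 at 103 of the 150 sites (68.7%, 60.6 to 76.0) and at 55.6% (54.3 to 56.9) of the gained windows. The intervals of the sites and of each other group do not overlap, but they cover counting error alone, and the difference was not tested.

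By distance from the window edge, with every base counted once, the ratio at the sites was 1.35 (1.21 to 1.51) in the first kb and 1.31 (1.16 to 1.47) from 1 to 2 kb. It was 1.16 (1.09 to 1.24) from 2 to 5 kb and 1.17 (1.11 to 1.23) from 5 to 10 kb. Farther out it was 1.08 (1.04 to 1.12) from 10 to 20 kb, 1.10 (1.07 to 1.12) from 20 to 50 kb and 1.10 (1.08 to 1.11) from 50 to 100 kb. Around the gained windows the ratio was between 1.04 and 1.08 at all of these distances. Up to 10 kb the intervals of the sites lay above those of the gained windows, and from 10 to 20 kb they overlapped. From 20 to 50 kb and from 50 to 100 kb those of the sites again lay above those of the gained windows, 1.046 to 1.05 and 1.03 to 1.04. The intervals of the faint windows overlapped those of the sites from 2 to 5 kb (1.05 to 1.10) and from 10 to 20 kb (1.06 to 1.08). At the other distances they lay below. The gap was narrowest from 5 to 10 kb, with 1.065 to 1.105 at the faint windows and 1.108 to 1.231 at the sites. The day 6 density from 2 to 5 kb was 1.498 times the genome mean around the sites and 1.69 times around the gained windows. The order turned with distance, to 1.41 and 1.39 times from 20 to 50 kb and 1.40 and 1.30 times from 50 to 100 kb.

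**Figure D3:**
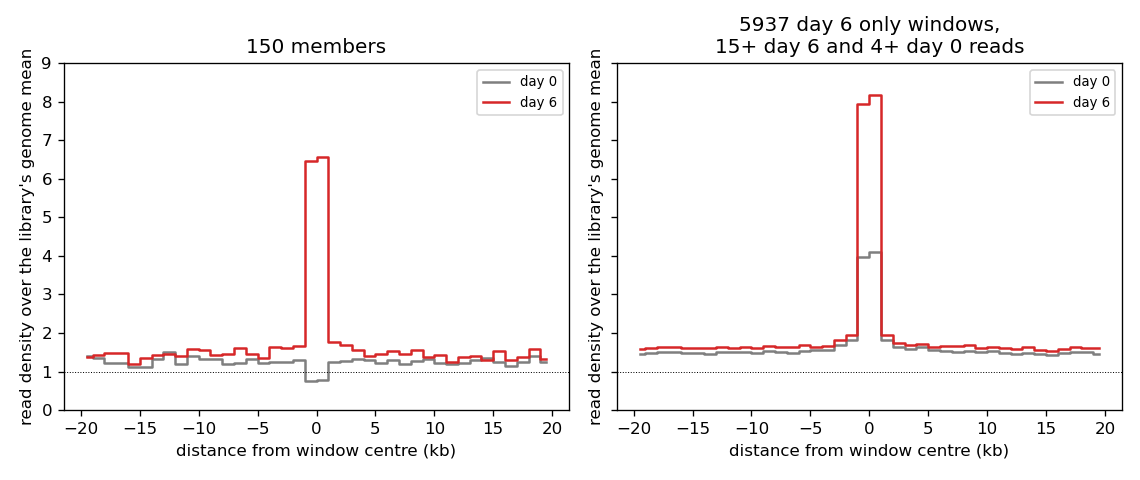
Read density per 1 kb, divided by the genome mean of the library, against the distance from the window centre, for the 150 sites (left) and the 5937 gained windows (right) at day 0 (grey) and day 6 (red). Beyond the central 2 kb only stretches free of listed windows are counted. The sites rise from 0.743 and 0.776 at day 0 to 6.45 and 6.57 at day 6 in the central 2 kb, where the gained windows show a day 0 peak.

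Listed windows in the neighbourhood were counted too, to see whether they had larger ratios than elsewhere. Joined windows of both lists within 100 kb of a site that hold no site themselves were used. Those of the day 0 list had a ratio of 1.28 (1.24 to 1.33) over 249 stretches, against 1.25 (1.24 to 1.25) over all 7483 such stretches of the genome. Those of the day 6 list alone had 2.001 (1.93 to 2.07) over 517 stretches, against 1.95 (1.93 to 1.96) over 13594. In both of these classes the interval at the sites overlapped that of the genome. Over both classes joined, the ratio was 1.64 (1.596 to 1.68) over 766 stretches near the sites and 1.53 (1.53 to 1.54) over all 21077, and these intervals did not overlap. The share of stretches from the day 6 list alone enters the joined ratio, and its part was not tested.

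All 150 sites lay in separate stretches, and the median distance from a site to the nearest other site was 3197 kb. The spacing that 150 windows placed at random would have was not computed, so nothing is read about clustering. Another site lay within 100 kb of 8 of them (5.33%, 2.33 to 10.2) and within 500 kb of 22 (14.7%, 9.43 to 21.4). These 22 formed 9 pairs and 1 group of 4. Shares of this kind grow with the size of a group, so they are not set beside the larger groups.

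The group of 4 lay on chromosome 11 between 68918764 and 69157926. Its sites starting at 69155927 and 69151612 were 4.32 kb apart and went from 2 to 21 and from 3 to 20 reads. Those starting at 68918764 and 69039070 went from 3 to 19 and from 3 to 16. The day 6 folds over the flank of these 4 were 3.11, 3.81, 1.63 and 4.71. The 7 other listed stretches in between held 150 day 0 and 134 day 6 reads. Their ratio was 1.07 (0.844 to 1.36). Over all stretches without a site it was 1.25 (1.24 to 1.25) for the day 0 list and 1.95 (1.93 to 1.96) for the day 6 list alone. How the 7 divide between these classes was not counted, so nothing is read from their ratio.

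The closest pairs came next. On chromosome 5, between 145095902 and 145111749, 2 sites together went from 4 to 33 reads. A second pair on that chromosome, between 125422530 and 125505982, also went from 4 to 33, and the 7 other stretches there had a ratio of 1.80 (1.36 to 2.40). Groups were named by the number of sites and then by their span.

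Measured against all listed windows, the surroundings of the sites were like those of other day 6 windows with 15 or more reads. Another day 6 window lay within 10 kb of 60 of the 150 sites (40.0%, 32.1 to 48.3), of 37.8% (36.5 to 39.0) of the gained windows and of 37.3% (35.9 to 38.7) of the kept ones. Among the faint windows it was 27.3% (24.98 to 29.7). The median distance to the nearest day 6 window was 13.9 kb. A day 0 window lay within 10 kb of 20 sites (13.3%, 8.34 to 19.8) and of 16.2% (15.3 to 17.2) of the gained windows, and within 100 kb of 66.7% (58.5 to 74.1) and 69.2% (68.0 to 70.3). These shares of sites and gained windows did not differ beyond counting error.

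Sites were found on all 19 autosomes, from 3 each on chromosomes 13 and 16 to 15 on chromosome 11. Chromosome 11 held 10% of the sites (5.71 to 15.96), chromosome 7 held 14 sites (9.33%, 5.20 to 15.2), chromosome 15 held 13 and chromosome 5 held 12. Per length, chromosomes 19, 15 and 11 were densest, with 13.0, 12.6 and 12.3 sites per 100 Mb. The X chromosome held none, which allows up to 2.43% of the sites, and held 1.11% of the gained windows. On each of these 20 chromosomes the interval of the sites overlapped that of the gained windows.

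The intervals overlapped least on chromosome 12, which held 9 sites (6.00%, 2.78 to 11.1) and 2.49% (2.11 to 2.92) of the gained windows. Of its 157 day 6 windows without a day 0 counterpart and with 15 or more reads, 5.73% (2.65 to 10.6) were sites, against 2.46% (2.09 to 2.89) over all chromosomes. Its day 0 background was also the sparsest of the autosomes, at 2.38 reads per 2 kb. The X chromosome was sparser still, at 2.03, and 0 of its 66 such windows were sites (0 to 5.44%). The next sparsest autosome, chromosome 4 at 2.62, had a share of 2.56% (1.11 to 4.97). Chromosomes 8 and 15, with the densest day 0 background at 3.77 and 3.63 reads per 2 kb, had shares of 1.74% (0.752 to 3.39) and 2.97% (1.59 to 5.02). A limit of 3 reads is easier to meet where the background is sparse, and the part of the background in these shares was not tested.

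**Figure D4:**
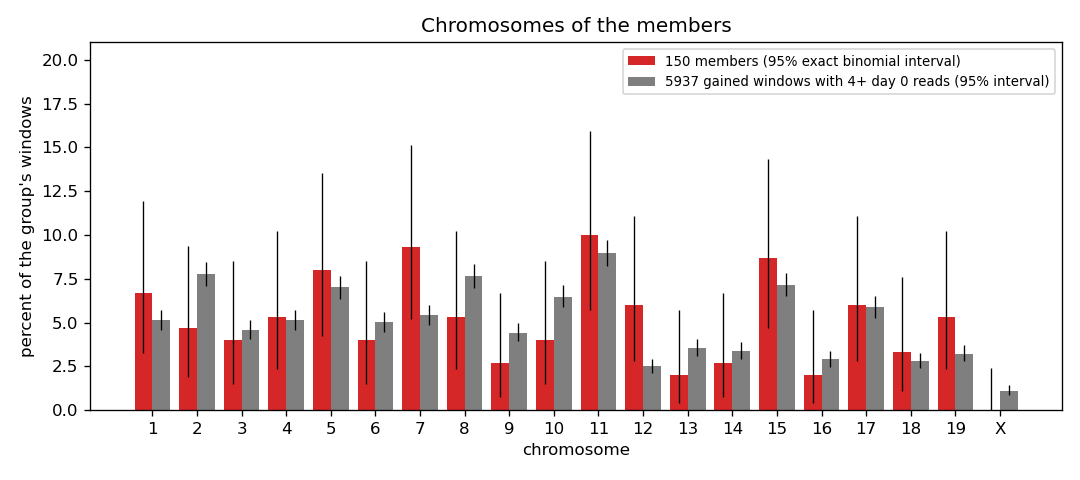
Percent of the 150 sites (red) and of the 5937 gained windows (grey) on each autosome and X, with exact 95% intervals as error bars. Chromosome 11 holds the highest share of the sites, 10%, and X holds none.

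The place of the sites in the deposited list was uneven. The authors' list is sorted neither by position nor by the reads counted here. The Spearman correlation of row number with day 6 reads was -0.0844 over 19794 windows. The 5664 windows that overlap a day 0 window stood at similar places in both lists, with a Spearman correlation of 0.870, although the libraries differ. These correlations are across windows, which share libraries and depth, and are descriptions. No source used here says what the order stands for. Windows in the middle of the list held more reads: cut into 10 equal blocks of rows, the list had a median day 6 count of 12 in block 1, 20 in block 6 and 12 in block 10, and a median day 0 count of 8, 16 and 8.

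Only 14 of the 150 sites stood in blocks 4 to 6 (9.33%, 5.20 to 15.2), which held 37.1% (35.8 to 38.3) of the gained windows and 48.9% (47.4 to 50.3) of the kept ones. Blocks 8 to 10 held 75 sites (50%, 41.7 to 58.3) and 24.3% (23.2 to 25.4) of the gained windows. Blocks 1 to 3 held 45 sites (30%, 22.8 to 38.0) and 26.8% (25.7 to 28.0) of the gained windows. The faint windows, which share the limit on day 0 reads, had 37.5% (34.9 to 40.1) in blocks 1 to 3, 5.72% (4.56 to 7.07) in blocks 4 to 6 and 48.5% (45.9 to 51.2) in blocks 8 to 10. All 3 intervals overlapped those of the sites, and the difference was not tested. Day 0 reads per window and place in the list move together, and the part of the day 0 limit in this pattern was not tested. The median place of the sites was 70.1% of the way down the list, and block 8 alone held 32 of them.

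**Figure D5:**
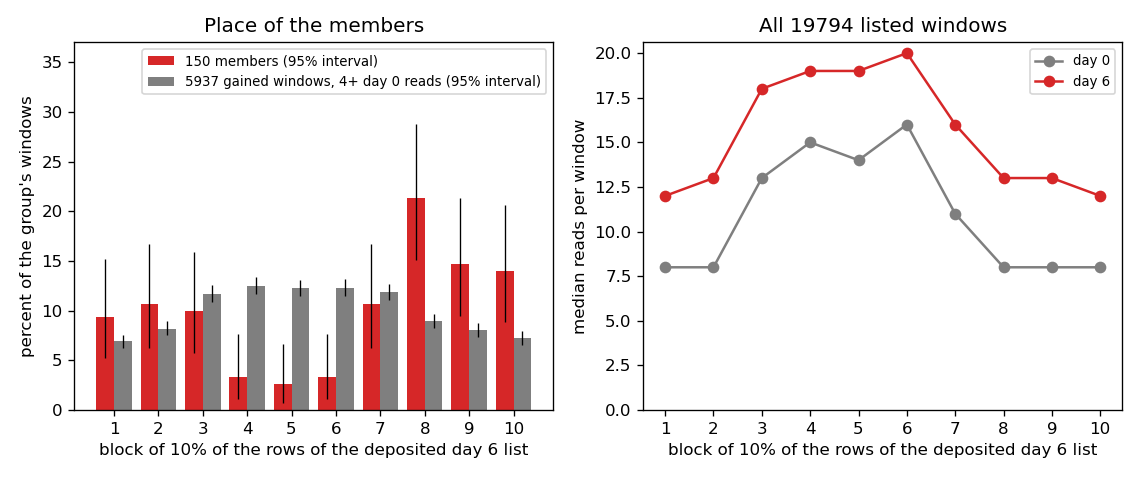
Left, percent of the 150 sites (red) and of the 5937 gained windows (grey) in each block of 10% of the rows of the deposited day 6 list, with exact 95% intervals. Right, median reads per window of all 19794 listed windows in each block at day 0 (grey) and day 6 (red); the sites are fewest in blocks 4 to 6, where both medians are highest.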

How the data were processed

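GPS2 ChIP-seq reads and window lists of 2 libraries, 1 per day, were used. Per the labels' protocols, DNA was sequenced on an Illumina GAII. Bowtie, HOMER and mm8 appear in the submitters' processing notes, and their versions, settings and any control are not given there. The deposited reads are intervals of 36 bases with at most 1 read per start and strand, which caps dense positions. The score column the authors deposited is constant and was not used. The deposited windows are 2000 bp wide and carry no height or p-value.

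Read starts were moved towards the fragment centre, 95 bp at day 0 and 85 bp at day 6, and counted per window (numpy 2.4.6, pandas 2.3.3). Ratios of day 6 to day 0 were scaled by all reads of the library. Ratios and folds carry exact conditional binomial intervals, and shares Clopper-Pearson intervals (scipy 1.17.1). Summed folds used windows with at least 2000 bp of free flank. The genome mean is all reads on chromosomes 1 to 19, X and Y over the span covered by reads. A window count of 0 would allow 3 reads, or 7.05e-05% of the day 0 and 8.47e-05% of the day 6 library. The counting functions were tested on simulated data.

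The sites, their limits and the compared groups were chosen with earlier results of these data known. Named sites were the 10 with the most day 6 reads, the 5 with the highest fold over the flank (more where tied) and the 3 groups with the most sites within 500 kb. A part of that rule on sites with 0 day 0 reads found none. No gene annotation or genome of mm8 was used, so the planned sequence features and nearest genes are not reported.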

Additional observations from a re-analysis of the deposited data

How the results depend on the processing

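Of 93 alternative values over 11 results, 65 stayed within the counting interval of the reported value (or within 1.5 times the reported number of sites), 28 moved and none reversed. A reversal was defined only for the 2 folds over the flank and the flank ratio. The limits on reads favour the same side of 1 for both folds, so nothing is read from their lack of a reversal. The number of sites was 64 or 308 with a day 0 maximum of 2 or 4 reads, and 452 or 28 with a day 6 minimum of 12 or 20, which follows from the stricter or looser limits. The fold over the flank at day 6 was 3.54 and 4.99 with minima of 12 and 20, 6.51 against the genome mean and 6.49 in the central 1 kb. At day 0 it was 0.418 and 0.743 with maxima of 2 and 4, 0.760 against the genome mean and 0.775 in the central 1 kb, and stayed under 1 in all these settings. The flank ratio was 1.15 with a minimum of 12 and 1.31 when scaled by background bins. Starting the flanks 1 kb from the edge (chosen after seeing the data) gave 1.20 (1.13 to 1.27). The share of sites with another site within 100 kb was 0% of 64 with a maximum of 2, 12.01% with a maximum of 4, and 14.7% within 500 kb. The share with a day 0 window nearby was 21.4% with a minimum of 20, and 3.33% and 44.7% within 5 and 50 kb. The day 6 reads within 200 bp of the centre were 56.5% with a maximum of 2, 60.4% and 49.1% with minima of 12 and 20, and 64.4% within 300 bp. The same share of the day 0 reads, examined after seeing the data, was 33.5% without the shift, 27.0% with a minimum of 20 and 48.6% within 300 bp. The share in blocks 4 to 6 of the list, also examined after seeing the data, was 17.9% with a minimum of 20. Where neither the limits nor the distances set the change, the cause was not tested. Chromosome 11 no longer held the most sites with a maximum of 2, where chromosome 15 held 8 of 64. With a minimum of 20, chromosomes 1, 8 and 11 shared the lead at 4 of 28 sites each. Scaling the day 0 count to the day 6 library (by 0.832) chose the same 150 windows. Whole counts force this, because 4 reads stay above 3 after scaling. Its values are among the 65 that stayed, and nothing is read from them. No paired analysis was possible because each day has 1 library and the labels number no replicates. At 1 to 3 day 0 reads per site, the day 0 values of single sites are not reliable, and sums over the sites carry them.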

Other observations

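Outside both lists, 37 of the 1184137 background bins of 2 kb with a read also met both limits on reads (0.00312%, 0.00220 to 0.00431). They lie on a fixed grid and not on peak centres. The one with the most day 6 reads, on chromosome 6 (144624001 to 144626000), held 3 day 0 and 20 day 6 reads. Another on chromosome 4 (153900001 to 153902000) held 0 and 18. Both were picked after their values were seen.

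The limits were also turned around. Of the 936 day 0 windows without a day 6 counterpart and with 15 or more day 0 reads, 12 held at most 3 day 6 reads. Over all 2123 day 0 windows without a day 6 counterpart that is 0.565% (0.292 to 0.985), beside 1.06% (0.899 to 1.24) for the sites among the 14130 day 6 windows. The limits were not scaled for the smaller day 6 library, which makes the limit of 3 reads easier to meet at day 6.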
